A study of Homo sapiens with 18 samples.

Results

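HEK293 Flp-In cells in which endogenous NRF1 was silenced were compared between the line expressing NRF1-ΔE7, an NRF1 isoform without exon-7, and the line expressing full-length NRF1 (NRF1-FL). The 6 bulk RNA-Seq libraries compared, 3 of each line under siNRF1, were taken by their column labels from the 18 libraries of the experiment. HEK293 is a human embryonic kidney line, and Flp-In cells carry a fixed genomic site into which a transgene is placed. Both groups received an siRNA against NRF1 (siNRF1) and then doxycycline, which switched on a FLAG-tagged NRF1 transgene with silent changes that make it resistant to the siRNA. The same lines under a non-targeting siRNA (siNT, 3 libraries each), and cells without a transgene under siNRF1 or siNT (3 libraries each), are used beside them. Each isoform was read in its own hygromycin-selected stable line, so isoform and line cannot be told apart. Whether cells without a transgene are the parental line was not stated in the sources read. The libraries carry replicate numbers with no word on whether each was cultured separately. The p-values therefore describe spread among these samples only, which may be technical. In bulk RNA a smaller share of a kind of cell and less RNA per cell cannot be told apart.

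Nuclear respiratory factor 1 (NRF1) regulates transcription by binding as a dimer to GC-rich palindromes, most often close to the start site of genes that lack a TATA box. It is best known for activating nuclear genes for respiratory chain subunits and other mitochondrial proteins, and it also binds at promoters of genes for DNA replication, cilia and protein turnover. The segment encoded by exon-7 overlaps part of the DNA-binding domain. It lies on the plus strand at chr7:129710374-129710571 (hg38), and its 198 nt encode 66 residues, so skipping it keeps the reading frame. The exon and the sense strand of the siRNA are shown because they are what separates the isoforms and what removes endogenous NRF1. The siRNA sequence lies in exon 4 of the 11 exons of the canonical transcript, at chr7:129677681-129677699, outside exon-7. No letters are capitalised in these sequences.
NRF1 exon-7: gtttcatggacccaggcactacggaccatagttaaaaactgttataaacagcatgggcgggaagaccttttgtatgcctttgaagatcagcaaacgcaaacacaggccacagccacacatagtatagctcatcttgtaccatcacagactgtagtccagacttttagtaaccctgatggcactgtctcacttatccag
siNRF1 sense strand: gcuauuguccucuguaucu

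The deposited values are estimated counts per gene, which summed to 37.2 to 44.8 M per library in the NRF1-ΔE7 line and 33.2 to 40.6 M in the NRF1-FL line under siNRF1. Levels are given as CPM, counts scaled to a common library size with TMM factors, and log2 fold-changes are NRF1-ΔE7 over NRF1-FL with their standard error (SE). No library repeated another of its condition within counting noise (chi-square over its degrees of freedom, 2.01 to 7.27). Each is treated as a sample, though this spread does not show that the libraries came from separate cultures. NRF1 RNA was 37.3, 37.9 and 39.9 CPM in the NRF1-ΔE7 libraries, against 49.3, 50.4 and 49.1 CPM in the NRF1-FL libraries under siNRF1, with a log2 fold-change of -0.37 (SE 0.0451, edgeR quasi-likelihood test, adjusted p = 9.03e-07). Both lines lay above the 8.05 CPM of siNRF1 cells without a transgene. Counts are not scaled for length, the NRF1-ΔE7 transcript is 198 nt shorter, and endogenous and transgene RNA are counted together. The share of the -0.37 that reflects transcript number was therefore not tested. With siNT in place of siNRF1, NRF1 RNA was 58.5 CPM with NRF1-ΔE7 and 54.4 CPM with NRF1-FL (0.10, same test, adjusted p = 0.123). The difference between the lines itself differed between the siRNAs, by -0.47 on the log2 scale (same test, adjusted p = 1.31e-05). Markers were counted by adjusted p alone, under 0.05, by which 17.8% of all tested genes were lower and 13.9% higher under siNRF1. Of a list of HEK293 kidney and neural features 15 of 16 genes were tested, with 3 lower and 5 higher. The 15 genes summed to 2480 to 2550 CPM in NRF1-ΔE7 and 2140 to 2250 CPM in NRF1-FL libraries. The list median was 0.036. The lower HEK293 features past a log2 fold-change of 0.5 in size were the kidney transcription factors LHX1 (-0.66) and SIX2 (-0.63). No higher member passed it. Under siNT LHX1 was at -0.41 and SIX2 at -0.71, so both were lower under either siRNA. Epithelial markers summed to 139 to 142 CPM in NRF1-ΔE7 and 143 to 148 CPM in NRF1-FL libraries (8 of 10 tested, 1 lower). Fibroblast markers summed to 81.9 to 86.7 CPM in NRF1-ΔE7 and 73.5 to 78.3 CPM in NRF1-FL libraries (5 of 10 tested, 1 higher). Neuronal markers summed to 66.2 to 70.0 CPM in NRF1-ΔE7 and 61.2 to 66.2 CPM in NRF1-FL libraries, with 7 of 10 tested, 2 lower and 1 higher. Blood markers (3 of 9 tested, 1 lower) summed to 22.2 to 22.9 and 22.9 to 27.1 CPM in the NRF1-ΔE7 and NRF1-FL libraries. Endothelial markers (2 of 6 tested, 0 lower and 0 higher) summed to 0.581 to 0.918 and 0.685 to 0.836 CPM.

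With NRF1-ΔE7 in place of NRF1-FL under siNRF1, 737 genes were lower and 379 were higher. A call needed edgeR's quasi-likelihood test at an adjusted p below 0.05 together with a log2 fold-change of more than 0.5 in size, and these are 4.1% and 2.11% of the 17962 genes tested. The median of all genes was 0.003. Of the lower genes 270 differed by more than 1 on the log2 scale, as did 125 of the higher ones. The 3 NRF1-ΔE7 libraries lay below the 3 NRF1-FL libraries for 717 of the 737 lower genes. Of all tested genes 41.5% did not overlap, counted in either direction. The 737 genes were called on these same libraries, so their separation is a description. Of the lower genes 39.3% were at 10 CPM or more in the higher group, against 12.9% of the higher genes and 58.5% of all tested genes. Among annotated genes, protein-coding ones made up 82.3% of the lower and 65.6% of the higher genes, and 80.2% of all.

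Under siNT, where endogenous NRF1 was present, the same comparison of the lines called 208 genes lower and 189 higher, which is 1.16% and 1.05% of those tested. Of the 737 genes lower under siNRF1, 127 were also lower under siNT (17.2% of the 737 and 61.1% of the 208). Of the 379 higher genes, 105 were also higher under siNT (27.7% of the 379 and 55.6% of the 189). The libraries of the 2 comparisons are separate. The interaction of isoform and siRNA, which tests whether the isoform difference itself differs between siRNAs, called 345 genes negative and 57 positive (1.92% and 0.317% of genes tested). It was negative in 301 of the genes lower under siNRF1 (40.8%) and positive in 29 of the higher genes (7.65%). The remaining genes outside both groups, 322 lower and 246 higher, passed neither test of siNT nor the interaction in the same direction.

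**Figure D1:**
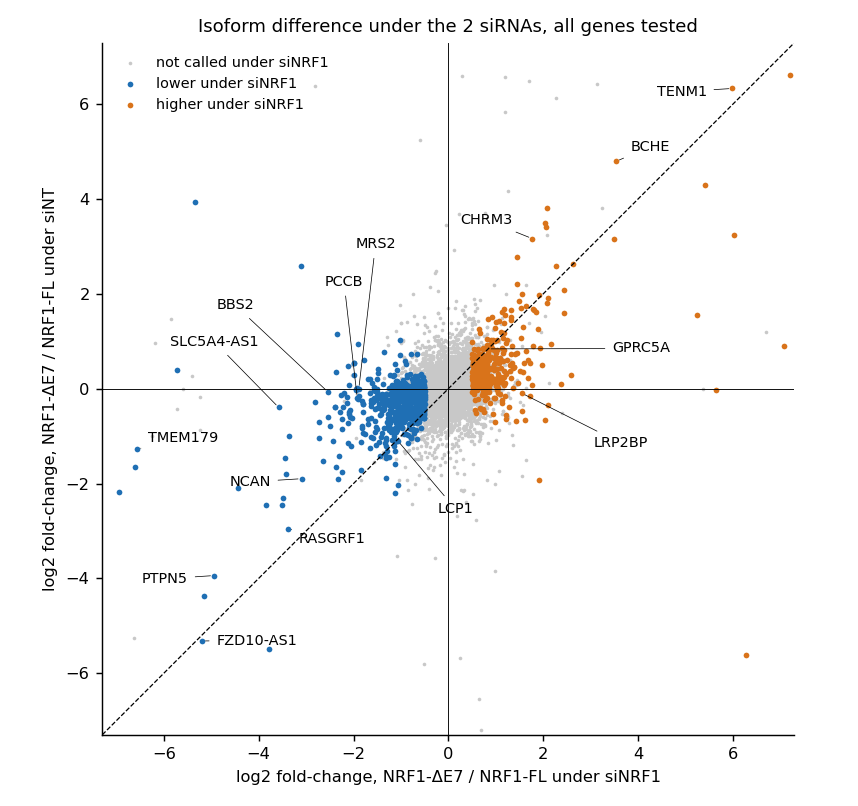
Log2 fold-change of NRF1-ΔE7 over NRF1-FL under siNRF1 (x axis) and under siNT (y axis) for the genes tested, with genes lower (blue) and higher (orange) under siNRF1, other genes in gray and a dashed line of equal values. BBS2, PCCB and MRS2 lie near 0 under siNT while TENM1, FZD10-AS1 and RASGRF1 lie near the dashed line, and 3 genes lie beyond the axes.

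The lower genes with the smallest adjusted p differed between the lines by 0.19 or less on the log2 scale under siNT, with the exception of LCP1. BBS2 encodes a subunit of the BBSome, a coat complex that carries membrane proteins in cilia. It was 5.46, 5.43 and 5.15 CPM with NRF1-ΔE7, against 29.5, 31.1 and 32.0 CPM with NRF1-FL (log2 fold-change -2.53, SE 0.0516, adjusted p = 6.22e-20). The groups were far apart, and the NRF1-ΔE7 level was that of siNRF1 cells without a transgene (5.28 CPM). Under siNT it was 42.9 CPM with NRF1-ΔE7 and 45.2 CPM with NRF1-FL. PCCB encodes the beta subunit of propionyl-CoA carboxylase, a mitochondrial enzyme of amino acid and odd-chain fatty acid breakdown, and was 15.8, 13.9 and 14.0 CPM with NRF1-ΔE7, against 55.4, 56.0 and 54.6 CPM with NRF1-FL (-1.92, SE 0.0420, adjusted p = 1.77e-19). MRS2, a magnesium channel of the inner mitochondrial membrane, was 13.2, 14.9 and 12.9 CPM, against 49.4, 50.5 and 51.7 CPM (-1.89, SE 0.0438, adjusted p = 5.03e-19). In both genes the lowest NRF1-FL library was far above the highest NRF1-ΔE7 library.

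POMT1, TMED4, ZMYM4 and UNG had the same form. POMT1, a mannosyltransferase that modifies dystroglycan in the ER, was 17.9, 16.4 and 18.1 CPM with NRF1-ΔE7, against 48.5, 51.2 and 50.03 CPM with NRF1-FL (-1.51, adjusted p = 2.56e-18). TMED4, a p24 protein of traffic between ER and Golgi, was 34.5, 35.1 and 36.3 CPM, against 86.8, 83.2 and 83.8 CPM (-1.26, adjusted p = 2.97e-18). ZMYM4, a zinc finger protein, was 33.8, 33.5 and 32.2 CPM, against 67.8, 67.9 and 68.0 CPM (-1.03, adjusted p = 9.75e-17). UNG encodes uracil-DNA glycosylase, which removes uracil from DNA, and was 112, 108 and 113 CPM, against 207, 210.3 and 199 CPM (-0.89, adjusted p = 9.92e-17). In siNRF1 cells without a transgene these genes were at 19.6, 39.4, 36.3 and 100.3 CPM in the order named, close to the NRF1-ΔE7 libraries. Their interactions with the siRNA were -1.45, -1.28, -0.95 and -0.96 on the log2 scale. LCP1, an actin-bundling protein, was 66.7, 70.8 and 68.5 CPM with NRF1-ΔE7, against 144, 144 and 143 CPM with NRF1-FL (-1.06, adjusted p = 2.45e-17), and differed as much under siNT (-1.10).

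PUDP, ANKRD26 and YEATS4, which were named by rule, were lower in every NRF1-ΔE7 library. PUDP, a phosphatase of pseudouridine 5′-phosphate, was 7.54, 6.74 and 7.64 CPM with NRF1-ΔE7, against 21.3, 21.2 and 20.8 CPM with NRF1-FL (-1.53, SE 0.0653, adjusted p = 2.53e-14). ANKRD26, a protein of the distal appendages of centrioles, was 11.1, 11.3 and 9.80 CPM, against 31.1, 32.3 and 31.4 CPM (-1.56, SE 0.0543, adjusted p = 5.77e-16). YEATS4, which reads acylated lysines on histones, was 20.2, 20.9 and 19.4 CPM, against 55.7, 52.7 and 51.9 CPM (-1.41, SE 0.0459, adjusted p = 2.39e-16). Under siNT the log2 fold-changes were -0.24 for PUDP, 0.03 for ANKRD26 and -0.11 for YEATS4, of which PUDP alone passed (adjusted p = 0.0042). The interaction was -1.29, -1.60 and -1.30 in the same order. Among low-expressed genes of this form, ABHD14A, an alpha/beta hydrolase, was 0.612, 0.455 and 0.419 CPM with NRF1-ΔE7, against 2.74, 2.57 and 2.54 CPM with NRF1-FL (-2.39, adjusted p = 1.02e-10). The antisense RNA SLC5A4-AS1 was 0.240, 0.227 and 0.126 CPM, against 2.04, 2.90 and 2.13 CPM (-3.58, adjusted p = 1.98e-10).

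**Figure D2:**
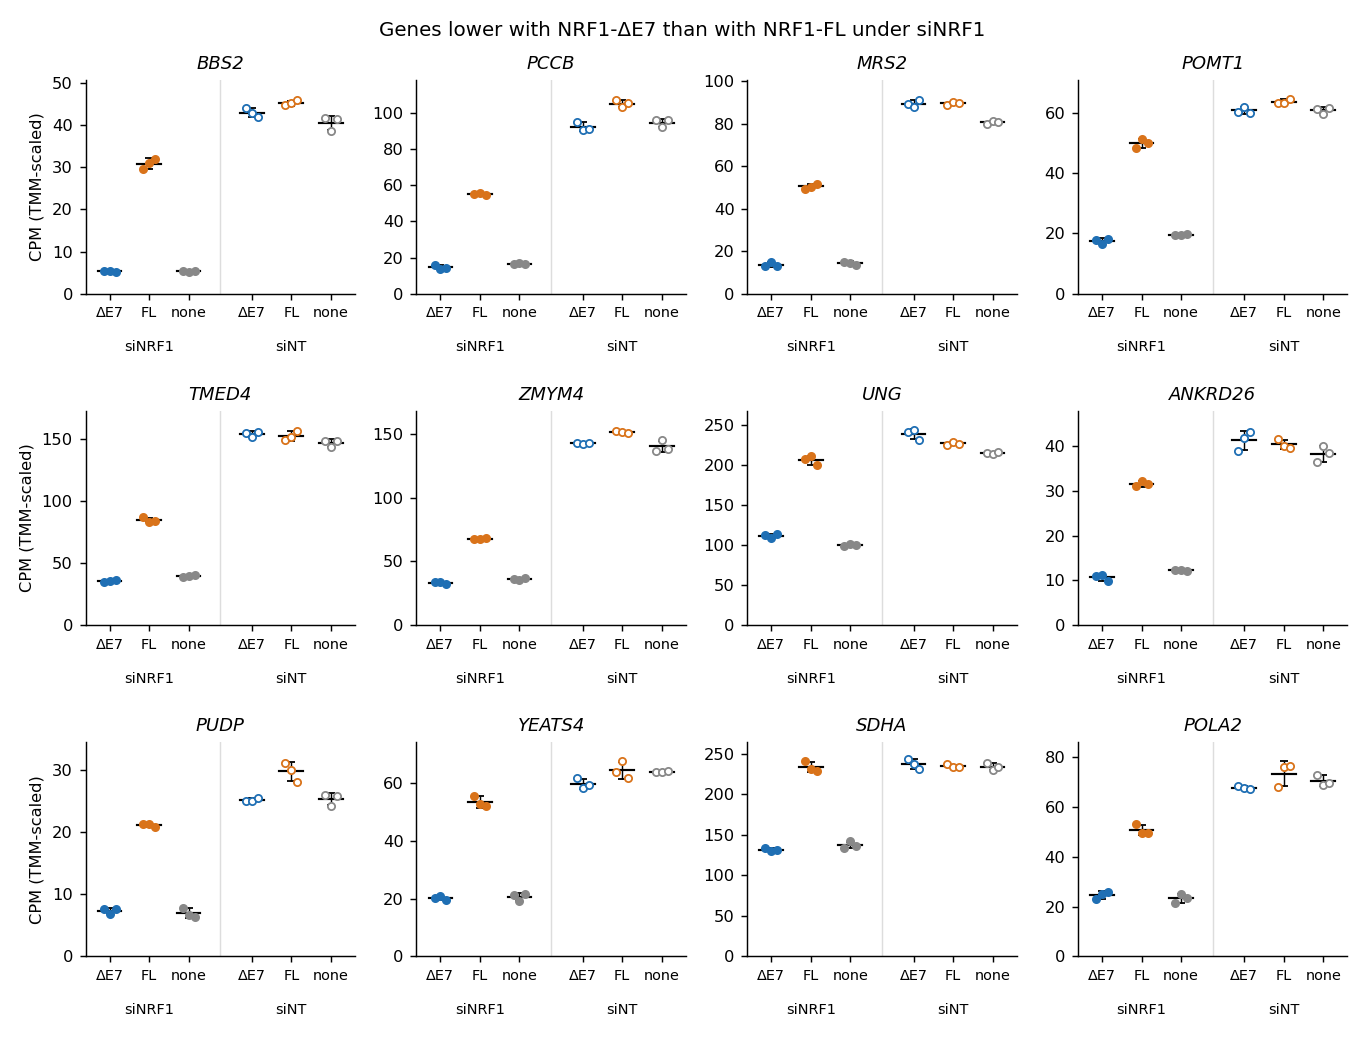
RNA of 12 genes in CPM (TMM-scaled, y axes start at 0) in the NRF1-ΔE7 line, the NRF1-FL line and cells without a transgene (none) under siNRF1 (filled) and siNT (open), points the libraries, lines the mean and error bars the SD of 3. Under siNRF1 the NRF1-ΔE7 points lie below every NRF1-FL point and close to cells without a transgene, as for BBS2 at 5.15 to 5.46 CPM against 29.5 to 32.0 CPM.

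Over the 301 lower genes with a negative interaction, RNA in the NRF1-ΔE7 line was close to that of siNRF1 cells without a transgene. Relative to siNT cells without a transgene, the median log2 ratio of these genes was -1.04 in the NRF1-ΔE7 line and -0.167 in the NRF1-FL line under siNRF1. It was -0.962 after siNRF1 without a transgene. Of these genes 241 (80.1%) were also called lower after siNRF1 in cells without a transgene, where 15.2% of all tested genes were. The 127 genes lower under both siRNAs had another profile, with medians of -0.227 in the NRF1-ΔE7 line and 0.833 in the NRF1-FL line under siNRF1, -0.284 and 0.489 under siNT, and -0.024 after siNRF1 without a transgene. Of these 34 (26.8%) were lower after siNRF1 without a transgene. Both groups of genes were chosen on the libraries of the NRF1-ΔE7 and NRF1-FL lines, so their medians there are descriptions.

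The start sites of these genes were searched for an NRF1-type motif because NRF1 binds near start sites. The motif was CGCANGCG on either strand, with N any base, and as a palindrome CGCATGCG, in 250 bases before to 50 after the start of the canonical transcript. Starts were found for 99.4% of tested genes (hg38, GENCODE v44). Of windows of the lower genes with a negative interaction, 59.7% held CGCANGCG and 16.7% held CGCATGCG, where 16.6% and 3.39% of all tested genes did. Genes lower under both siRNAs had shares of 15.2% and 2.4%, and higher genes had 10.4% and 3.2%. At least 2 matches were found in 25.3% of the windows of the lower genes with a negative interaction and in 3.69% of all. In windows with a match, the match nearest to the start began at a median of 21 bases before the start in these lower genes and 56 bases before it in all. The share varied with G and C content, so it is given in 4 bins of the windows, about equal in size, by percent G or C. From the lowest bin to the highest, it was 27.7%, 61.3%, 67.8% and 67.5% in the lower genes with a negative interaction and 5.34%, 18.8%, 21.9% and 20.7% in all genes.

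Promoter sequence from RefSeq (GRCh38.p14) was matched by symbol for 56 of the 79 genes named by rule. Stretches around the match are shown for 8 lower genes described here that were chosen from those with a match. These stretches have the match in capitals, with any other match in them left in lower case. They are read 5′ to 3′ on the strand of the gene.
PCCB, chr3:136250278-136250333, plus strand: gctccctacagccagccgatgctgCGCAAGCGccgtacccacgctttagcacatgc
MRS2, chr6:24402878-24402933, plus strand: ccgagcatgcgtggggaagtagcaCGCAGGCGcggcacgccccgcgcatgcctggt
POMT1, chr9:131502875-131502930, plus strand: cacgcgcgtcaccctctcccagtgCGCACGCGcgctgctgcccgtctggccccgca
ZMYM4, chr1:35268653-35268708, plus strand: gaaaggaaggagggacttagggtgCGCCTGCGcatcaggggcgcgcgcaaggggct
ANKRD26, chr10:27100476-27100531, minus strand: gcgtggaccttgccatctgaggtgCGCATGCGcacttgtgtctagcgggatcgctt
YEATS4, chr12:69359692-69359747, plus strand: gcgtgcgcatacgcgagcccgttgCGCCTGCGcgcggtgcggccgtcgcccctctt
PUDP, chrX:7148152-7148207, minus strand: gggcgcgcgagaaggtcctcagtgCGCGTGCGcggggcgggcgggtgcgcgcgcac
ABHD14A, chr3:51975039-51975094, plus strand: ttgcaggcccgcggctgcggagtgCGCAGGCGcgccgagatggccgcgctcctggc

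Counting from the start site, with the base before it at -1, the match began at -38 in PCCB, -34 in MRS2, -19 in POMT1, -32 in ZMYM4, -13 in ANKRD26, -27 in YEATS4, -30 in PUDP and -1 in ABHD14A. PUDP had 3 matches in its window and ANKRD26, YEATS4, POMT1 and ZMYM4 had 2 each. The palindromic form was in the ANKRD26 stretch. BBS2, UNG, LCP1 and SLC5A4-AS1 had no match in their windows, which says only that these letters are not in that stretch. ATL3, a gene higher with NRF1-ΔE7, had 1 match, at -207. SDHA is shown in full because it holds 4 matches that begin at -165, -116, -67 and -18, and NDUFA8 because 2 of its 3 matches overlap. All matches are in capitals here.
SDHA, chr5:218070-218369, plus strand: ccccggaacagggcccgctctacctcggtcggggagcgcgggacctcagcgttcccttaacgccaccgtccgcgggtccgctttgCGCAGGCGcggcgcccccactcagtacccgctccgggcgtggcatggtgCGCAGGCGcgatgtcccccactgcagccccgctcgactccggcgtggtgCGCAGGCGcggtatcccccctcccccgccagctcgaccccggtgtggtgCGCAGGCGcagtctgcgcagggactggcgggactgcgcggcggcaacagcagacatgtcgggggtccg
NDUFA8, chr9:122159730-122160029, minus strand: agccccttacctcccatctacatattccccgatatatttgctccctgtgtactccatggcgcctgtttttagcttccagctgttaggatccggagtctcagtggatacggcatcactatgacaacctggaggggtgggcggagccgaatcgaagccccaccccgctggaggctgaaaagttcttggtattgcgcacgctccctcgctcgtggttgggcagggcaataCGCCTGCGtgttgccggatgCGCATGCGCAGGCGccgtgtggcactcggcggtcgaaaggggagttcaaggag

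Lists of nuclear genes for the 5 respiratory complexes had medians between -0.109 and 0.036, with single genes further from 0. List members are counted, as the markers were, by adjusted p alone, at 0.05, by which 17.8% of all tested genes were lower and 13.9% higher. SDHA, the flavoprotein subunit of succinate dehydrogenase (complex II), was 133, 129.5 and 132 CPM with NRF1-ΔE7, against 241, 231 and 228 CPM with NRF1-FL (-0.83, SE 0.0286, adjusted p = 5.47e-16). Its 3 NRF1-ΔE7 libraries lay far below those of NRF1-FL, and under siNT the lines were at 237 and 235 CPM. Of the 8 genes of complex II and its assembly 3 were lower and 0 higher (median -0.038). In complex I, 8 of 37 subunits were lower and 4 higher (median -0.013), led by NDUFA8 at 27.5, 29.0 and 30.4 CPM with NRF1-ΔE7, against 47.3, 43.8 and 43.6 CPM with NRF1-FL (-0.63, adjusted p = 6.45e-11), and NDUFB8 at -0.53. Complex III had 8 of 15 lower and 2 higher, with a median of -0.109, and UQCRC1, a core subunit, at -0.33. For complex IV and cytochrome c 4 of 30 were lower and 5 higher (median 0.027), and for ATP synthase 3 of 19 were lower and 5 higher (median 0.036). TMEM70, an assembly factor of ATP synthase, was the largest of these at -0.77 (adjusted p = 8.62e-10). Complex I assembly had 2 of 15 lower and 3 higher (median 0.018).

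Of the 15 tested genes of the mitochondrial genome 8 were lower and 0 higher. The list median was -0.232 under siNRF1 and -0.119 under siNT. Of the 15, 0 passed the fold threshold, where 4.1% of all tested genes were called lower and 2.11% higher. MT-CO1, the catalytic subunit of cytochrome c oxidase, had a log2 fold-change of -0.36 and the ribosomal RNA MT-RNR2 of -0.37. Genes of the mitochondrial genome took 1.19% to 1.41% of counts in NRF1-ΔE7 libraries and 1.43% to 1.66% in NRF1-FL libraries under siNRF1. These groups did not overlap, and siNRF1 cells without a transgene, at 1.28% to 1.6%, overlapped both. Polyadenylated RNA was sequenced, and how selection acts on these transcripts was not tested. Of 20 nuclear genes that copy or transcribe mitochondrial DNA 7 were lower and 4 higher (median -0.065). Mitochondrial protein import had 9 of 33 lower and 1 higher (median -0.027), led by PAM16, a part of the import motor, at -0.44. The mitochondrial ribosome had 14 of 77 lower and 16 higher, with a median of 0.018. Heme synthesis had 3 of 11 lower and 3 higher.

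In the TCA cycle and pyruvate oxidation 8 of 27 genes were lower and 4 higher (median -0.012). Next to SDHA, SUCLA2 was 45.8, 49.3 and 48.6 CPM with NRF1-ΔE7, against 76.5, 73.6 and 76.3 CPM with NRF1-FL (-0.66, adjusted p = 4.17e-12), and was also lower under siNT (-0.31). SUCLA2 encodes a subunit of succinyl-CoA synthetase. IDH3A, a subunit of isocitrate dehydrogenase, was at -0.35 under siNRF1 and 0.01 under siNT. Of 20 glycolysis genes 8 were lower and 6 higher (median 0.01), among them PGAM1, phosphoglycerate mutase, at -0.38, and GPI, glucose-6-phosphate isomerase, at -0.30. SLC2A3, a glucose transporter, was higher at 0.66 and more so under siNT (1.182). IDH3A, PGAM1 and GPI, like the further list members named below with no CPM, were chosen after their values were seen.

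In 3 lists of cilium and centriole genes, 1 member each passed the fold threshold as lower (of 19, 26 and 26 tested). This is about the share of all tested genes called lower (4.1%). In the list of distal appendages and the ciliary base 1 member was also called higher, where 2.11% of all tested genes were. Of 19 BBSome and Bardet-Biedl genes 2 were lower and 3 higher (median 0.02), BBS2 being the called one. KIF3A, the kinesin-2 motor that drives intraflagellar transport, was 25.4, 31.6 and 24.6 CPM with NRF1-ΔE7, against 58.0, 62.9 and 66.0 CPM with NRF1-FL (-1.20, SE 0.0651, adjusted p = 1.80e-12). In siNRF1 cells without a transgene it was 31.2 CPM. The list of intraflagellar transport and its motors had 8 of 26 lower and 5 higher, with IFT122, of the retrograde transport complex, higher at 0.44 and with an interaction of 0.58. Of 26 genes of distal appendages and the ciliary base 3 were lower and 7 higher. B9D2, of the transition zone, was higher at 14.0, 13.2 and 13.8 CPM with NRF1-ΔE7, against 8.21, 8.64 and 7.12 CPM with NRF1-FL (0.77, adjusted p = 1.56e-06), and was at 13.5 CPM in siNRF1 cells without a transgene. Of 33 kinesin motors 10 were lower and 4 higher, with KIF21B at -0.66 under siNRF1 and -0.33 under siNT. Under siNRF1 KIF21B was 7.20 CPM with NRF1-ΔE7, 11.4 CPM with NRF1-FL and 5.54 CPM without a transgene.

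Genes that copy, repair or package DNA were called singly. POLA2, the regulatory subunit of DNA polymerase alpha, was 23.1, 25.1 and 26.0 CPM with NRF1-ΔE7, against 53.1, 49.7 and 49.4 CPM with NRF1-FL (-1.04, SE 0.0541, adjusted p = 9.32e-13). DNA2, a helicase and nuclease of replication, was 32.4, 36.2 and 33.8 CPM, against 64.4, 63.6 and 63.9 CPM (-0.91, SE 0.0415, adjusted p = 8.29e-14). In both genes every NRF1-ΔE7 library lay below every NRF1-FL library. Of 50 replication genes 13 were lower and 8 higher (median -0.022). FANCL, the ubiquitin ligase of the Fanconi anemia pathway, was at -0.61 (adjusted p = 3.65e-09), in a list with 6 of 34 lower and 8 higher. The TIP60 acetyltransferase complex had 5 of 18 lower and 4 higher, with MRGBP at 34.4, 34.5 and 35.3 CPM with NRF1-ΔE7, against 49.5, 49.99 and 52.05 CPM with NRF1-FL (-0.54, adjusted p = 6.49e-10) next to YEATS4. Cyclins, CDKs, E2F and RB genes had 9 of 41 lower and 7 higher, and p53 targets had 7 of 26 lower and 3 higher. Among the latter SPATA18, of mitochondrial quality control, was at -0.68 under siNRF1 and -0.29 under siNT. Under siNRF1 it was 17.0 CPM with NRF1-ΔE7, 27.3 CPM with NRF1-FL and 14.5 CPM without a transgene.

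Of 27 genes of pseudouridine and RNA modification 7 were lower and 3 higher, with PUDP far below the rest. Of 13 RNA silencing genes 5 were lower and 0 higher (median -0.102). AGO1, an Argonaute protein that binds small RNAs, was 59.0, 56.9 and 57.2 CPM with NRF1-ΔE7, against 82.7, 83.8 and 85.1 CPM with NRF1-FL (-0.54, adjusted p = 4.39e-12), and XPO5, which exports precursor miRNAs, was at -0.45. Of 37 aminoacyl-tRNA synthetase genes 11 were lower and 5 higher (median -0.045). Ribosome biogenesis had 23 of 39 lower and 0 higher, with a median of -0.118 under siNRF1 and -0.056 under siNT. In it NOP2, a methyltransferase of ribosomal RNA, was at -0.43, the transcription factor MYC at -0.31 and nucleolin (NCL) at -0.22. None of the 39 passed the fold threshold, where 4.1% of all tested genes were called lower and 2.11% higher.

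Most of the heat shock list was lower in the NRF1-ΔE7 line under siNRF1. Of 21 genes 17 were lower and 1 higher, with a median of -0.192 under siNRF1 and 0.007 under siNT. In 15 of them the interaction was negative at an adjusted p under 0.05, and in 1 it was positive, where 5.55% of all tested genes were negative and 1.64% positive by adjusted p alone. HSP90AA1, the inducible cytosolic HSP90, was at -0.31 (adjusted p = 6.79e-08), CHORDC1, an HSP90 cochaperone, at -0.48 and HSPA8, the constitutive HSP70, at -0.19. HSPA4L, an HSP110-type chaperone, was 79.3, 81.1 and 75.6 CPM with NRF1-ΔE7, against 113, 119 and 118 CPM with NRF1-FL (-0.57, adjusted p = 6.30e-11). HSPA1A, an inducible HSP70, was 3.34, 4.09 and 2.68 CPM, against 4.55, 5.01 and 5.77 CPM (-0.61, adjusted p = 0.00649), and was -0.46 with adjusted p = 0.0585 without NRF1-ΔE7 replicate 3. It has a near-identical copy, HSPA1B (-0.37), so the counts of both are uncertain. DNAJB4, an HSP40, was the higher gene at 0.53.

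The integrated stress response reduces translation and induces amino acid genes through ATF4. Of 32 of its genes 24 were higher and 1 was lower under siNRF1 (median 0.198). Under siNT 15 were higher and 0 lower (median 0.129), where 7.13% of all tested genes were higher and 8.42% lower by adjusted p alone. Of the 32, 3 passed the fold threshold under siNRF1 and 2 under siNT, all of them higher. Of all tested genes 2.11% were called higher under siNRF1 and 1.05% under siNT. ATF4 itself was at 0.16, DDIT3, a transcription factor of stress-induced cell death, at 0.48 and ASNS, asparagine synthetase, at 0.36. CHAC1, which degrades glutathione, was 14.3, 15.8 and 14.0 CPM with NRF1-ΔE7, against 11.2, 9.23 and 9.20 CPM with NRF1-FL (0.57, adjusted p = 3.40e-05). ALDH1L2, a mitochondrial enzyme of folate metabolism, was 13.3, 14.4 and 11.5 CPM, against 3.90, 4.37 and 5.19 CPM (1.54, SE 0.0923, adjusted p = 9.53e-12), and 2.01 under siNT. Cells without a transgene lay between the lines, at 7.60 CPM under siNRF1. CBS, cystathionine beta-synthase, was at 0.55 under siNRF1 and 0.58 under siNT, and at 0.49, under the fold threshold, without NRF1-FL replicate 1.

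The other lists had smaller or mixed counts. The unfolded protein response of the ER had 7 of 22 lower and 3 higher, the proteasome 5 of 31 lower and 1 higher, and cholesterol synthesis 1 of 26 lower and 4 higher. Among lipid droplet and triglyceride genes 5 of 28 were lower and 5 higher, with DGAT2, a triglyceride synthase, at -0.85, MGLL, monoglyceride lipase, at -0.60 and PLIN2 at 2.28. The antioxidant list had 7 of 19 lower and 4 higher, with HMOX1, heme oxygenase, at -0.64, GCLM, of glutathione synthesis, at -0.60 and OSGIN1 at 0.66. Interferon and double-stranded RNA sensing had 3 of 16 lower and 3 higher, with OAS3, a sensor of double-stranded RNA, at 0.56 and IFIT3 at 0.52. IFIT3 lost its call without NRF1-ΔE7 replicate 2 (0.42) and without NRF1-FL replicate 1 or 2 (both 0.49). NRF1 and its coactivators or partners had 5 of 14 lower and 0 higher, with PPARGC1A, a coactivator of NRF1, at -0.19. Synapse, adhesion and neural matrix genes had 7 of 26 lower and 3 higher, and G protein-coupled and nuclear signalling 7 of 29 lower and 7 higher. Of 16 commonly used reference genes 2 were lower and 4 higher, of which SDHA (-0.83) and TFRC, the transferrin receptor (-0.44), were lower. Of the 7 neuronal markers tested 2 were lower and 1 higher, with a median of 0.1. The lower ones were RBFOX3, a splicing factor, at -0.70, and GAP43, at -1.23 on 6 to 10 counts per NRF1-ΔE7 library. The adjusted p of GAP43 in edgeR's test was 0.0528 to 0.104 without NRF1-ΔE7 replicate 1 or 3 or NRF1-FL replicate 1. Under siNT the log2 fold-changes of DGAT2, MGLL, PLIN2, HMOX1, GCLM and OSGIN1 were -0.62, -0.08, 2.59, -0.45, -0.28 and 0.29. Those of OAS3, IFIT3, RBFOX3 and GAP43 under siNT were 0.44, 0.29, -0.49 and 0.30.

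**Figure D3:**
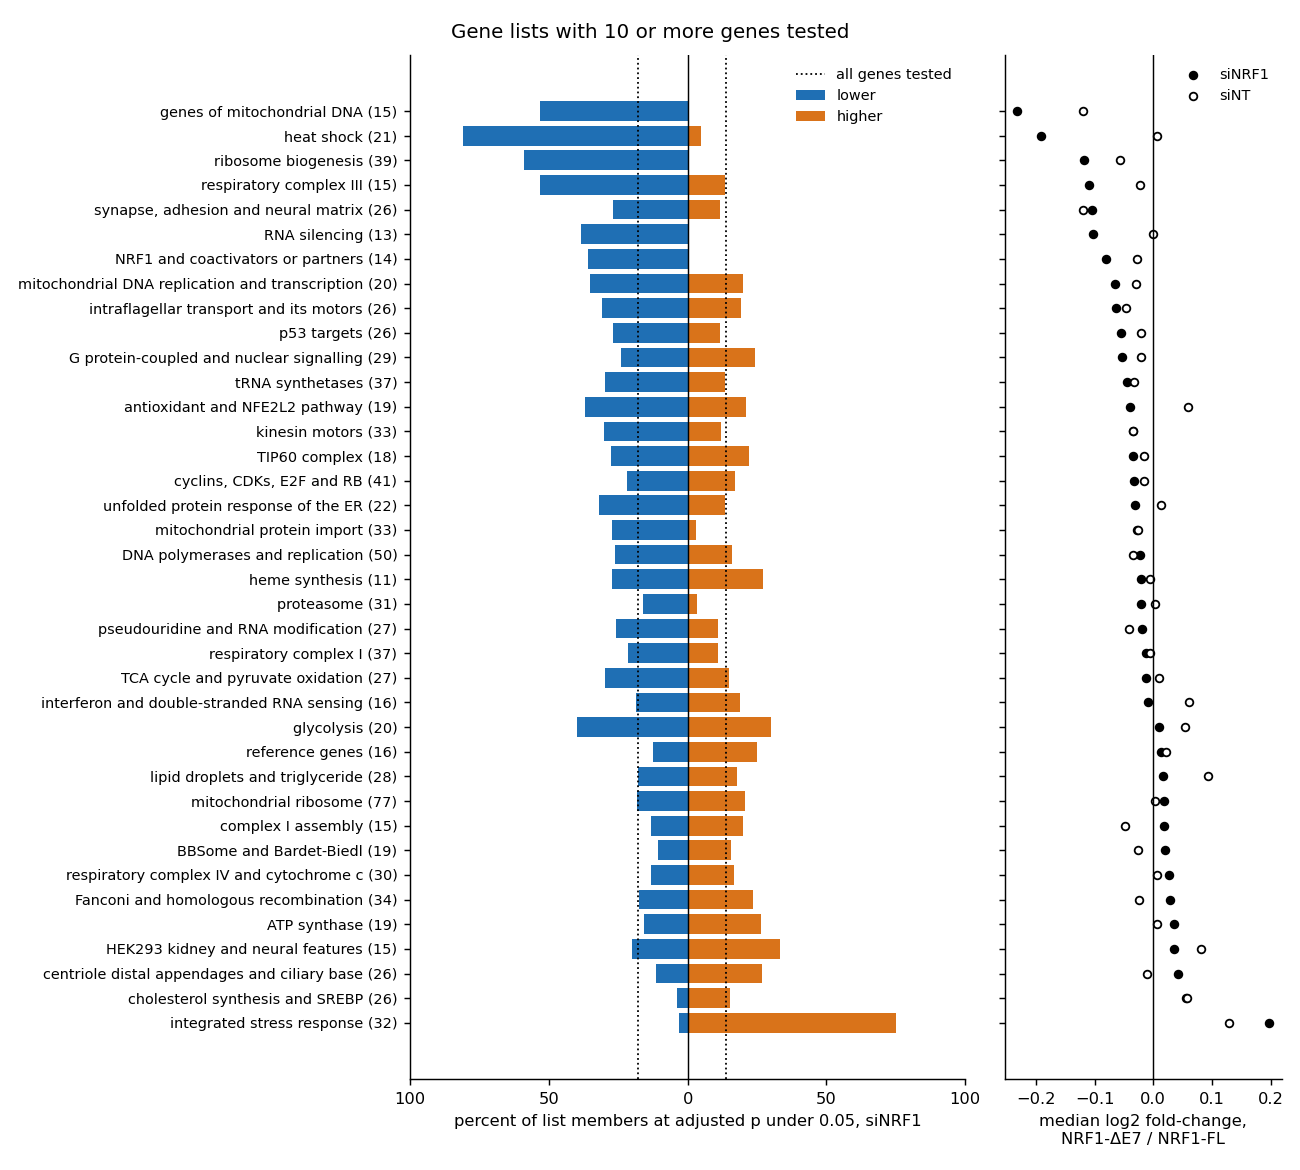
Left, percent of the tested genes (number in parentheses) of each list that were lower (blue) or higher (orange) with NRF1-ΔE7 under siNRF1 at an adjusted p under 0.05, dotted lines marking all genes tested (17.8% and 13.9%). Right, median log2 fold-change under siNRF1 (filled) and siNT (open). Heat shock genes have a median of -0.192 under siNRF1 and 0.007 under siNT, and integrated stress response genes are to the right under both.

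Of the 12 higher genes with the largest fold changes named by rule, 10 were also called higher under siNT. Of all 379 higher genes 27.7% were, and of all tested genes 1.05%. TENM1, a teneurin of neuronal adhesion, was 39.96, 38.6 and 35.8 CPM with NRF1-ΔE7, against 0.538, 0.590 and 0.663 CPM with NRF1-FL (5.99, SE 0.0841, adjusted p = 3.56e-23). It was 84.5 CPM with NRF1-ΔE7 and 1.04 CPM with NRF1-FL under siNT, and 0.543 CPM in siNRF1 cells without a transgene, so the NRF1-ΔE7 line alone was high. BCHE, butyrylcholinesterase, was 1.31, 1.44 and 1.32 CPM with NRF1-ΔE7, against 0.0807, 0.142 and 0.115 CPM with NRF1-FL (3.54, adjusted p = 1.47e-08). PLIN2, which coats lipid droplets, was 2.29, 2.00 and 2.26 CPM, against 0.538, 0.331 and 0.490 CPM (2.28, adjusted p = 1.84e-08). The groups were separate in each of these genes. AGTR1, an angiotensin II receptor, was at 2.08, IGLON5, a cell adhesion protein, at 2.44, PCDH20, a protocadherin, at 1.84, B3GALT1, a galactosyltransferase, at 1.79 and LSAMP, a neuronal adhesion protein, at 1.57, and each was also higher under siNT. CHRM3, a muscarinic acetylcholine receptor, was at 1.77 under siNRF1 and 3.17 under siNT, with an interaction of -1.40. ZNF90, at 1.90, belongs to a family of similar zinc finger genes whose reads can be shared.

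Better expressed genes of this kind differed less in fold and had small errors. FOXA1, a pioneer transcription factor, was 80.4, 79.8 and 74.9 CPM with NRF1-ΔE7, against 40.4, 38.8 and 37.0 CPM with NRF1-FL (1.02, SE 0.0405, adjusted p = 8.36e-15). GPRC5A, an orphan receptor induced by retinoic acid, was 77.3, 74.1 and 77.4 CPM, against 43.9, 42.4 and 42.7 CPM (0.83, SE 0.0313, adjusted p = 2.99e-15). EEF1A2, a translation elongation factor, was 135, 131 and 129.7 CPM, against 83.1, 78.8 and 78.1 CPM (0.72, SE 0.0423, adjusted p = 6.40e-12). No library of NRF1-FL reached an NRF1-ΔE7 library in these genes. ATL3, an atlastin that shapes the ER, was at 1.54 and AMBN, an enamel matrix protein, at 1.11. Under siNT the log2 fold-changes of FOXA1, GPRC5A, EEF1A2, ATL3 and AMBN were 0.64, 0.84, 0.83, 1.08 and 1.19. Over the 105 genes higher under both siRNAs, the median log2 ratio to siNT cells without a transgene was 0.913 in the NRF1-ΔE7 line and -0.251 in the NRF1-FL line under siNRF1.

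**Figure D4:**
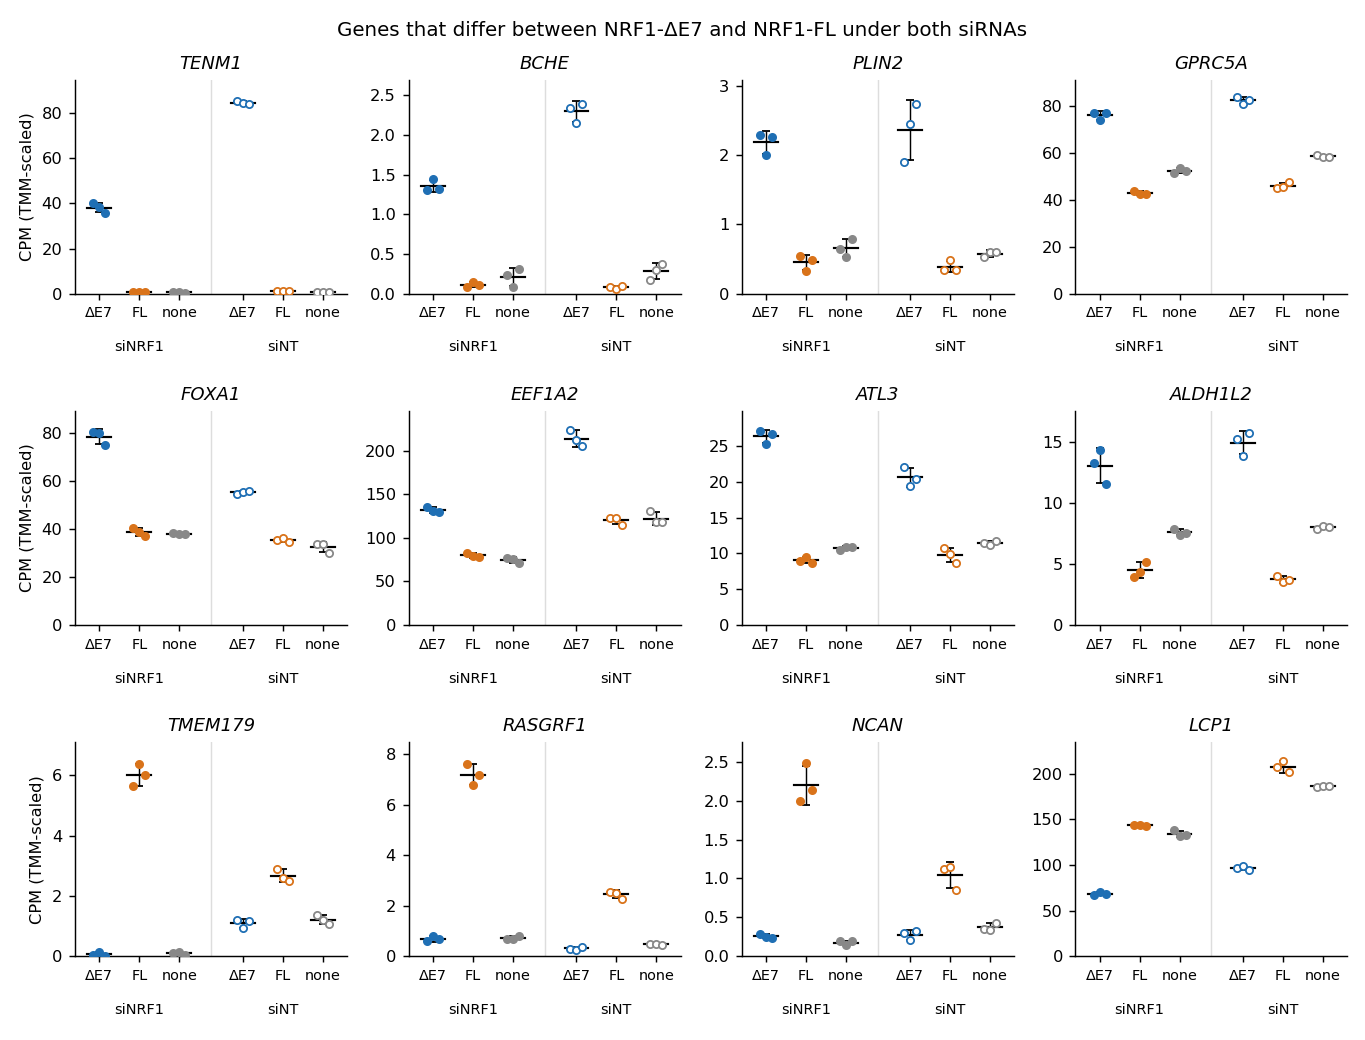
RNA of 12 genes in CPM (TMM-scaled, y axes start at 0) in the NRF1-ΔE7 line, the NRF1-FL line and cells without a transgene (none) under siNRF1 (filled) and siNT (open), points the libraries, lines the mean and error bars the SD of 3. TENM1 is high in the NRF1-ΔE7 line alone (35.8 to 39.96 CPM under siNRF1), while RASGRF1 is high in the NRF1-FL line alone (6.75 to 7.61 CPM).

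Of the 12 lower genes with the largest fold changes named by rule, 8 were also called lower under siNT. Of all 737 lower genes 17.2% were, and of all tested genes 1.16%. RASGRF1, an exchange factor that activates RAS, was 0.590, 0.808 and 0.670 CPM with NRF1-ΔE7, against 7.61, 6.75 and 7.18 CPM with NRF1-FL (-3.38, SE 0.138, adjusted p = 1.20e-14). Cells without a transgene were at 0.721 CPM under siNRF1, so the NRF1-FL line alone was high. TMEM179, a membrane protein, was 0.0437, 0.151 and 0 CPM with NRF1-ΔE7, against 5.65, 6.38 and 5.997 CPM with NRF1-FL (-6.56, adjusted p = 1.48e-13), on 2, 6 and 0 counts in the NRF1-ΔE7 libraries. Its difference under siNT was smaller (-1.27, interaction -5.29), and siNRF1 cells without a transgene were at 0.105 CPM. PTPN5, a tyrosine phosphatase of neurons, had 5, 1 and 0 counts with NRF1-ΔE7, against 57, 61 and 51 counts with NRF1-FL. NCAN, the proteoglycan neurocan, was 0.284, 0.253 and 0.230 CPM, against 1.99, 2.48 and 2.13 CPM (-3.09, adjusted p = 3.34e-10). ADCYAP1R1, the receptor of the neuropeptide PACAP, was at -2.42 and OXGR1, a receptor of oxoglutarate, at -2.49, with interactions of -1.31 and -1.69. CNTNAP1, an adhesion protein of myelinated axons, was at -1.26 under siNRF1 and -0.35 under siNT, with an interaction of -0.91. Under siNRF1 it was 3.78 CPM with NRF1-ΔE7, 9.03 CPM with NRF1-FL and 3.50 CPM without a transgene.

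Some of these genes had counts at or near 0 in a line. FZD10, a WNT receptor, had 2 counts in all with NRF1-ΔE7 and 74 with NRF1-FL. Their ratio of 43.2 has an exact 95% interval of 11.5 to 363 that covers counting error only. FZD10-AS1, which starts next to it on the other strand, was 0.0874, 0.101 and 0.105 CPM with NRF1-ΔE7, against 2.91, 3.64 and 4.58 CPM with NRF1-FL (-5.20, adjusted p = 1.13e-10). Both were also lower under siNT (-4.38 and -5.32). No source read here states whether counting used strand, so reads of this pair may not be told apart. The lncRNA AC079385.2 had 0 counts in the 3 NRF1-ΔE7 libraries and 11, 14 and 20 with NRF1-FL, which is at least 17.5-fold lower with 3 counts over the group as the floor. The lncRNA AC023824.1 had 118 counts with NRF1-ΔE7 and 2 with NRF1-FL (ratio 50.5, interval 13.7 to 422), and SPINK5, a serine protease inhibitor, had 44 and 3 (ratio 12.6, interval 4.03 to 63.2). EPHA5, an ephrin receptor, was at 2.64 and SOX1-OT, a lncRNA, at -2.65.

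A positive interaction marked few of the higher genes. LRP2BP, which binds the receptor megalin, was 1.55, 1.62 and 1.40 CPM with NRF1-ΔE7, against 0.592, 0.472 and 0.490 CPM with NRF1-FL (1.55, SE 0.213, adjusted p = 5.26e-06), and -0.09 under siNT. In siNRF1 cells without a transgene it was 1.43 CPM, at the level of the NRF1-ΔE7 line. CCN2, a secreted target of YAP also known as CTGF, was 28.7, 25.4 and 27.7 CPM, against 11.3, 11.6 and 11.7 CPM (1.24, SE 0.0743, adjusted p = 9.31e-12), with 0.61 under siNT. TMEM143, chosen after its values were seen, was 33.5, 33.8 and 35.8 CPM with NRF1-ΔE7, against 20.3, 19.98 and 20.3 CPM with NRF1-FL (0.77, adjusted p = 4.95e-11). It was 37.1 CPM in siNRF1 cells without a transgene and at 6.52 CPM in both lines under siNT. Over the 29 higher genes with a positive interaction the median ratio to siNT cells without a transgene was 1.10 in the NRF1-ΔE7 line and 0.288 in the NRF1-FL line under siNRF1, and 0.757 after siNRF1 without a transgene. Of them 19 (65.5%) were called higher after siNRF1 without a transgene, where 13.7% of all tested genes were.

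RN7SL2 and H2BFS met the naming rule but lost their calls without single libraries. RN7SL2, an RNA of the signal recognition particle with near-identical copies, was 19.1, 120.2 and 21.5 CPM with NRF1-ΔE7, against 14.0, 19.0 and 18.9 CPM with NRF1-FL. Its log2 fold-change of 1.603 (adjusted p = 0.0198) was 0.23 without NRF1-ΔE7 replicate 2, and 1.48 with adjusted p = 0.0689 without NRF1-FL replicate 1. H2BFS, a histone H2B gene with similar copies, was 0.0437, 0.858 and 0 CPM, against 0.969, 1.89 and 2.02 CPM (-2.53, adjusted p = 0.0131), and its adjusted p was 0.0648 without NRF1-ΔE7 replicate 1 and 0.0635 without replicate 3. In DESeq2 it was 0.131.

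The median log2 fold-change of genes on chromosome 13 was -0.212 under siNRF1 and -0.243 under siNT over 334 genes, where the other 22 chromosomes with at least 50 tested genes had medians of -0.052 to 0.076 and -0.05 to 0.063. Of these genes 33 (9.88%) were called lower and 3 (0.898%) higher under siNRF1, where other chromosomes had 2.83% to 5.74% lower and 1.24% to 3.29% higher. LCP1, SUCLA2, OXGR1 and SOX1-OT, all lower, and PCDH20, which was higher (1.84), are on this chromosome, and 704 lower and 376 higher genes remain without it. The values were not even along it. The 64 genes from 20 to 30 Mb had medians of 0.003 under siNRF1 and -0.001 under siNT, and the 64 genes from 40 to 50 Mb had -0.278 and -0.317. The 6 genes from 60 to 70 Mb had 0.115 under siNRF1 and -0.002 under siNT. Relative to cells without a transgene, the chromosome 13 genes at 1 CPM or more in any condition had medians of -0.094 in the NRF1-ΔE7 line and 0.096 in the NRF1-FL line under siNRF1, and of -0.087 and 0.136 under siNT. Isoform and line cannot be told apart in this shift.

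**Figure D5:**
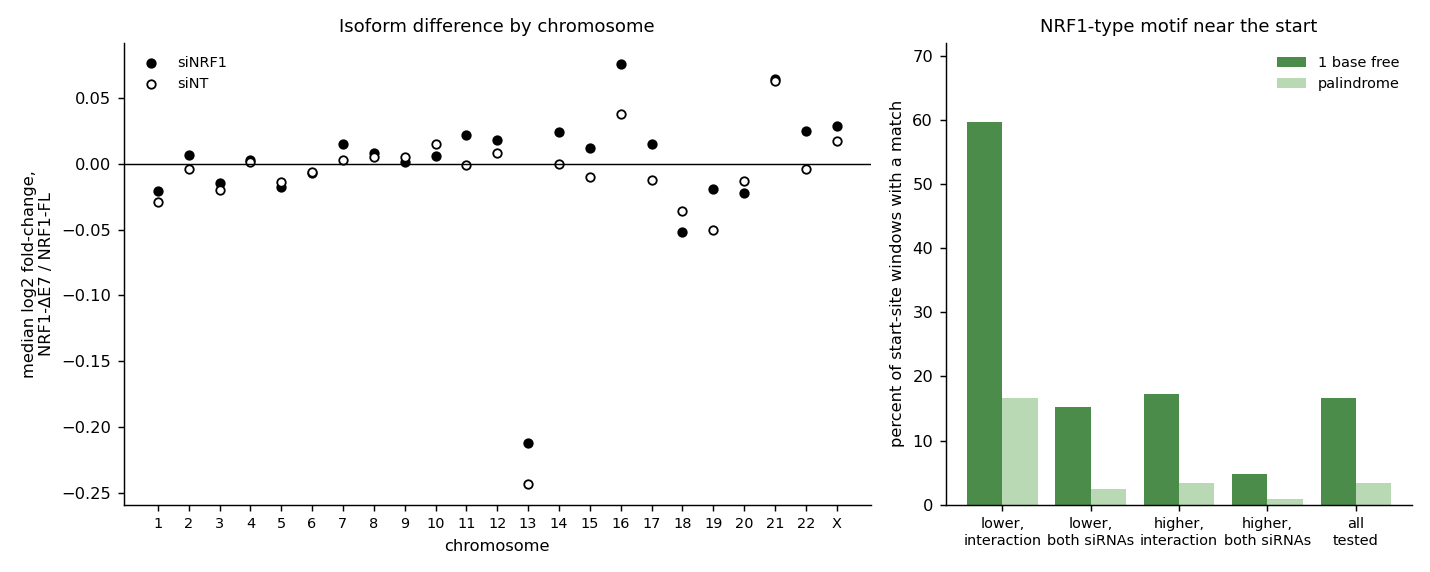
Left, median log2 fold-change of NRF1-ΔE7 over NRF1-FL by chromosome under siNRF1 (filled) and siNT (open), with chromosome 13 at -0.212 and -0.243. Right, percent of windows around the start site with the motif with 1 base free (dark) or its palindrome (light) in groups of called genes and all genes tested, 59.7% of lower genes with a negative interaction against 16.6% of all for the motif with 1 base free.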

How the data were processed

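Bulk polyadenylated RNA from HEK293 Flp-In cells was sequenced in 18 libraries, 3 for each of 6 conditions, and the 36-column table held 18 other columns, which were not used. The authors deposited estimated counts per gene for 58870 genes (91.9% of values whole). The submitters' processing notes name cutadapt 1.18, STAR 2.7.0f and DESeq2 1.46.0. No source read names the counting tool or says whether strand was used, and the labels and the study's methods give different intervals for doxycycline. Counts were rounded and fitted with edgeR 4.0.16 (limma 3.58.1, R 4.3.3) in a quasi-likelihood model over the 18 libraries, each condition with its own mean, after filterByExpr at a minimum count of 10 and TMM scaling, leaving 17962 genes. Totals of 31.2 to 44.8 M per library, a biological coefficient of variation of 0.0337 and 12 residual degrees of freedom set the precision. Benjamini-Hochberg adjustment ran over all genes tested, and no sets were tested. On simulated data for the siNRF1 comparison (17704 genes), 95.5% of 67 genes changed by 0.75 log2 were called, 95.5% of 67 by 1 and 100% of 66 by 2, with 0 unchanged genes called. The changed genes were drawn from those with a mean above 1 CPM, and all others had the same mean in every condition. The simulation thus does not describe genes of low level. Of the genes called, 17.2% of the lower and 29.8% of the higher were under 1 CPM in both lines under siNRF1. Count ratios with near-0 groups have exact binomial intervals.

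Genes were named by rule: NRF1, PUDP, ANKRD26 and YEATS4; the 12 lowest and 12 highest log2 fold-changes among called, non-overlapping genes of at least 1 CPM; the 8 smallest adjusted p in each direction; up to 4 called members of each of 44 lists; and the 5 furthest from 0 in each direction called under both siRNAs. The comparison, lists and rule were chosen with earlier results of these data known. Alternatives were DESeq2 1.42.0, other scalings, filters and thresholds, a replicate block, a fit of the compared conditions only, and each replicate left out.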

Additional observations from a re-analysis of the deposited data

Results flagged for a closer look

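The difference between NRF1-ΔE7 and NRF1-FL itself differed between siNRF1 and siNT, by the interaction in edgeR's quasi-likelihood test, for 345 genes in the negative and 57 in the positive direction. For genes named singly in the rule, for their fold change or for their adjusted p, the negative interactions on the log2 scale were -5.29 for TMEM179, -3.18 for SLC5A4-AS1, -2.45 for BBS2, -2.01 for ABHD14A, -1.88 for MRS2, -1.73 for PCCB, -1.69 for OXGR1 and -1.6 for ANKRD26. They were -1.45 for POMT1, -1.4 for CHRM3, -1.31 for ADCYAP1R1, -1.3 for YEATS4, -1.29 for PUDP, -1.28 for TMED4, -1.2 for NCAN, -0.96 for UNG and -0.95 for ZMYM4. CHRM3 was higher with NRF1-ΔE7 under both siRNAs, by less under siNRF1. The interaction was positive for LRP2BP, at 1.65, and CCN2, at 0.64.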

How the results depend on the processing

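With no fold threshold, 3199 genes were lower and 2492 higher with NRF1-ΔE7 under siNRF1, 1512 and 1281 under siNT, and 997 and 295 had a negative and a positive interaction. With a threshold of 1 on the log2 scale these counts were 270 and 125, 73 and 75, and 105 and 17. With no filter on low counts 126 genes had a positive interaction. Leaving out 1 library at a time gave 667 to 724 lower and 324 to 375 higher genes under siNRF1, 164 to 185 and 143 to 175 under siNT, 306 to 337 and 40 to 60 for the interaction, and -0.39 to -0.35 for NRF1. Under siNRF1 DESeq2 called 627 lower and 298 higher genes. Under siNRF1 replicate numbers did not pair the samples (correlations -0.0335 to -0.00566). Under siNT the correlations were -0.0174 to 0.03, and replicate 3 was closest to its own number. Such values do not show whether replicates were prepared together. A fit with the replicate block called 726 lower and 375 higher genes under siNRF1 and 206 and 194 under siNT. For the interaction it called 336 and 63. The motif with 1 base free, CGCANGCG, was in 36.8% of windows of lower genes and 16.6% of all, against 9.69% and 3.39% for CGCATGCG. Of 991 values for 78 named genes under the alternatives, 978 kept direction and call, 13 in 6 genes lost the call and 0 turned direction. DESeq2 gave 3 further values no adjusted p.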

Other observations

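Genes on chromosome 21 at 1 CPM or more had a median log2 ratio to cells without a transgene of 0.252 in the NRF1-ΔE7 line and 0.196 in the NRF1-FL line under siNRF1. Under siNT the ratios were 0.29 and 0.213.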
